A study of Mus musculus with 6106 samples.

Results

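Cyclic nucleotide phosphodiesterases are the enzymes that break down the second messengers cAMP and cGMP. The 5 genes described here are Pde2a, Pde3b, Pde4b, Pde4d and Pde7a, taken by symbol from the 23725 genes of a UMI count table. Of those genes, 25 have a symbol made of Pde, a number and at most 1 letter. The 5 genes were measured in regulatory T cells (Tregs) of the spleen, which depend on the transcription factor Foxp3 and restrain immune responses. The cells came from male B6 mice aged 10 months that carry Nr4a1-Gfp and Foxp3-Ires-Thy1.1, 2 reporters that all groups share. Live cells (DAPI-) positive for TCR beta, CD4 and the Thy1.1 reporter of Foxp3 were sorted into 3 bins of the GFP signal. The labels give GFPlow as 0 to 20 percent, GFPmed as 40 to 60 percent and GFPhigh as 80 to 100 percent of GFP. Engagement of the T cell receptor (TCR) induces Nr4a1, so the bins order Tregs by a reporter of TCR signalling. Each bin is 1 inDrops library, and the labels used here do not give the number of mice behind it.

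In T cells, cAMP made by adenylyl cyclases activates protein kinase A (PKA) and EPAC, and PKA restrains signalling below the TCR. Phosphodiesterases end that signal, and Tregs are known for a high cAMP content and for passing cAMP to the cells they suppress. Pde2a encodes an enzyme that hydrolyses both cAMP and cGMP and is stimulated by cGMP, while the enzyme from Pde3b hydrolyses cAMP and is inhibited by cGMP. Pde4b, Pde4d and Pde7a encode cAMP-specific enzymes, and the Pde4 enzymes are recruited to the TCR on stimulation. Pde3b is also known as a gene that Foxp3 represses.

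All 5 genes are protein-coding. In mm10, Pde2a lies on chromosome 7 from 101421691 to 101512827 on the plus strand, and Pde3b on chromosome 7 from 114415281 to 114539251 on the plus strand. Pde4b lies on chromosome 4 from 102087543 to 102607259 and Pde4d on chromosome 13 from 108449948 to 109953461, both on the plus strand. Pde7a lies on chromosome 3 from 19223108 to 19311322 on the minus strand. Of the genes in the count table, Mir139 overlaps Pde2a, and Mir582 and Mir1904 overlap Pde4d. These miRNA genes had 0 UMIs in each bin, and 0 genes of the table overlap a member on the opposite strand.

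The stretch of coding sequence that all 5 genes share in kind encodes the signature of the catalytic domain, whose histidine and aspartate residues bind the metal ions of the active site. It is shown because it carries what makes the 5 products one enzyme family, and because it shows how near the members are to each other in sequence. The 36 bases are exonic, read 5′ to 3′ from mm10 transcripts of GENCODE M21, with the codons of the first histidine, the aspartate and the second histidine in capitals.
Pde2a: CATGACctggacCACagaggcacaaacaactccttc
Pde3b: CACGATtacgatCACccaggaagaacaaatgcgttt
Pde4b: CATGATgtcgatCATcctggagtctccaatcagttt
Pde4d: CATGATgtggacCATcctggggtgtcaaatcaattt
Pde7a: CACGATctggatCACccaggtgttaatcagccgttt
Pde4b and Pde4d, the closest pair, have 30 of these 36 bases in common (83.3%), and the other pairs have 17 to 24. Over whole transcripts Pde4b and Pde4d share 3 windows of 30 bases, of 10565 and 12145, and the other pairs share 0. How the authors treated reads that match several genes is not given in the sources used here.

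Of 6106 cells, 5435 had at least 500 UMIs and were kept. GFPlow had 2123 of them, GFPmed 1537 and GFPhigh 1775. The median depth was 1085, 1540 and 1129 UMIs, and their sums were 2435870, 2512277 and 2270376 UMIs. Levels are UMIs per 1000000 UMIs of the bin (UPM), so 0 UMIs would allow up to 1.19 to 1.32 UPM. UMIs count molecules from their 3′ ends, and levels of different genes were not scaled by length. Nr4a1 was at 35.7, 92.7 and 340 UPM from GFPlow to GFPhigh and Foxp3 at 390, 317 and 359 UPM, and all 12 Treg identity genes were detected in each bin. The summed level of the 12 was 4463, 4597 and 6116 UPM. Of the 12, 6 were at least 1.5-fold higher in GFPhigh than in GFPlow, beside 9.79% of genes with at least 50 UMIs. Of 5361 barcodes, 72 occurred in 2 libraries and 1 in all 3. Cells with at least 2 UMIs of markers of another lineage made up 4.19%, 8.33% and 5.97% of the bins. These UMIs were counted before any thinning, so deeper cells reach the limit more easily. Some markers were spread thinly: of 160 GFPmed cells with Cst3, 137 had 1 UMI of it. The term cells of other lineages below is a label for cells past this limit, not an assigned type. With 1 library per bin there are 0 replicates, so no test was possible, and all intervals (95%) cover counting error only.

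Pde2a was highest in GFPlow, intermediate in GFPmed and lowest in GFPhigh, and it was the most abundant member in GFPlow and GFPmed. It had 445, 230 and 95 UMIs in GFPlow, GFPmed and GFPhigh, which is 183 UPM [166, 200.5], 91.6 UPM [80.1, 104] and 41.8 UPM [33.9, 51.2]. The intervals of the bins do not overlap. The level in GFPhigh was 4.35-fold lower than in GFPlow, a log2 ratio of -2.12 [-2.46, -1.80]. The step from GFPlow to GFPmed was a log2 ratio of -0.995 [-1.23, -0.76], and that from GFPmed to GFPhigh -1.13 [-1.49, -0.78]. The difference was thus spread over both steps, by nearly equal amounts. Among the 8633 genes with at least 50 UMIs over the libraries, 17 had a lower ratio of GFPhigh over GFPlow than Pde2a, which ranked 18 from the lowest.

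UMIs of Pde2a came from many cells, not a few. They lay in 307 GFPlow, 158 GFPmed and 76 GFPhigh cells, with at most 6, 5 and 4 UMIs in a cell. After thinning each cell to 500 UMIs, the share of cells with a UMI was 7.91% [6.80, 9.14] in GFPlow, 3.97% [3.05, 5.07] in GFPmed and 2.20% [1.57, 2.99] in GFPhigh, against 14.5%, 10.3% and 4.28% before thinning. The shares have the order of the levels. In the 323 cells with markers of another lineage, whose median depth was 1505 UMIs, the thinned share was 1.86% [0.685, 4.0] (7.43% before thinning) and the level 52.7 UPM [35.5, 75.2]. The levels in GFPlow and GFPmed lay above that interval, and the level in GFPhigh lay within it. Whether the UMIs of GFPhigh come from those Tregs or from free RNA was not tested.

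Pde3b had the next lowest ratio of GFPhigh over GFPlow, at low counts. From GFPlow to GFPhigh it had 40, 18 and 13 UMIs, or 16.4 UPM [11.7, 22.4], 7.16 UPM [4.25, 11.3] and 5.73 UPM [3.05, 9.79]. GFPlow stood above the other bins, whose intervals overlap each other. The log2 ratio was -1.48 [-2.55, -0.59] for GFPhigh over GFPlow and -1.17 [-2.09, -0.36] for GFPmed over GFPlow, while GFPhigh over GFPmed was -0.31 [-1.47, 0.79]. A step from GFPmed to GFPhigh was not resolved for Pde3b at this depth, and its interval also holds the value of Pde2a. The whole count came from 30, 12 and 8 cells, and 1 GFPmed cell held 6 of the 18 UMIs of its bin. Without that cell and the fullest of the other bins, GFPmed over GFPlow was -1.63, and with each cell thinned to 500 UMIs it was -0.50, under 1.5-fold. Thinned shares, from 16, 8 and 5 cells, were 0.754% [0.431, 1.22], 0.520% [0.225, 1.02] and 0.282% [0.0915, 0.656] (1.41%, 0.781% and 0.451% before thinning). In cells with markers of another lineage the thinned share was 0.619% [0.0751, 2.22], from 2 cells, an interval that holds the share of each bin.

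Pde4b, the Pde4 gene with the most UMIs here, differed little between bins and became the most abundant member in GFPhigh. Its 201, 160 and 145 UMIs are 82.5 UPM [71.5, 94.7] in GFPlow, 63.7 UPM [54.2, 74.4] in GFPmed and 63.9 UPM [53.9, 75.1] in GFPhigh. GFPmed and GFPhigh were at the same level within counting error, and the intervals of both reach into that of GFPlow. The log2 ratios over GFPlow were -0.37 [-0.69, -0.05] for GFPhigh and -0.37 [-0.68, -0.07] for GFPmed. Thinned shares of cells with a Pde4b UMI were 3.86%, 2.80% and 3.27%, and 3.72% [1.93, 6.40] in cells with markers of another lineage. Before thinning they were 7.91%, 8.39% and 6.59%, and 11.1% in the latter. The level of Pde4b in the cells of other lineages was 80.8 UPM [59.1, 108], an interval that overlaps those of all 3 bins.

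No difference of Pde4d between bins was resolved beyond counting error. Its 69, 69 and 79 UMIs gave 28.3 UPM [22.0, 35.8], 27.5 UPM [21.4, 34.8] and 34.8 UPM [27.5, 43.4]. The log2 ratio was 0.30 [-0.19, 0.78] for GFPhigh over GFPlow and -0.04 [-0.55, 0.46] for GFPmed over GFPlow. With each cell thinned to 500 UMIs these were -0.15 and -0.59, so the first changed sign. Thinning is a random draw, which left UMIs of Pde4d in 34 GFPlow, 16 GFPmed and 26 GFPhigh cells. Thinned shares were 1.60%, 1.04% and 1.46% (2.87%, 3.84% and 3.89% before thinning). In cells with markers of another lineage the thinned share was 0.929% [0.192, 2.69], from 3 cells, an interval that holds the share of each bin.

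Pde7a was the rarest member in GFPlow. It had 34, 23 and 21 UMIs, or 14.0 UPM [9.67, 19.5], 9.16 UPM [5.80, 13.7] and 9.25 UPM [5.73, 14.1], with intervals that overlap throughout. The log2 ratios over GFPlow were -0.58 [-1.45, 0.23] for GFPhigh and -0.60 [-1.44, 0.20] for GFPmed. Both intervals hold no difference as well as one of 2-fold, and with each cell thinned to 500 UMIs GFPmed over GFPlow turned to 0.35. Thinning is a random draw, which left UMIs of Pde7a in 12 GFPlow and 11 GFPmed cells, too few to give a direction. Thinned shares were 0.565%, 0.716% and 0.451% (1.41%, 1.30% and 1.07% before thinning). In cells with markers of another lineage the thinned share was 1.24% [0.338, 3.14], from 4 cells. That interval holds the share of each bin, so no order between them is given.

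**Figure D1:**
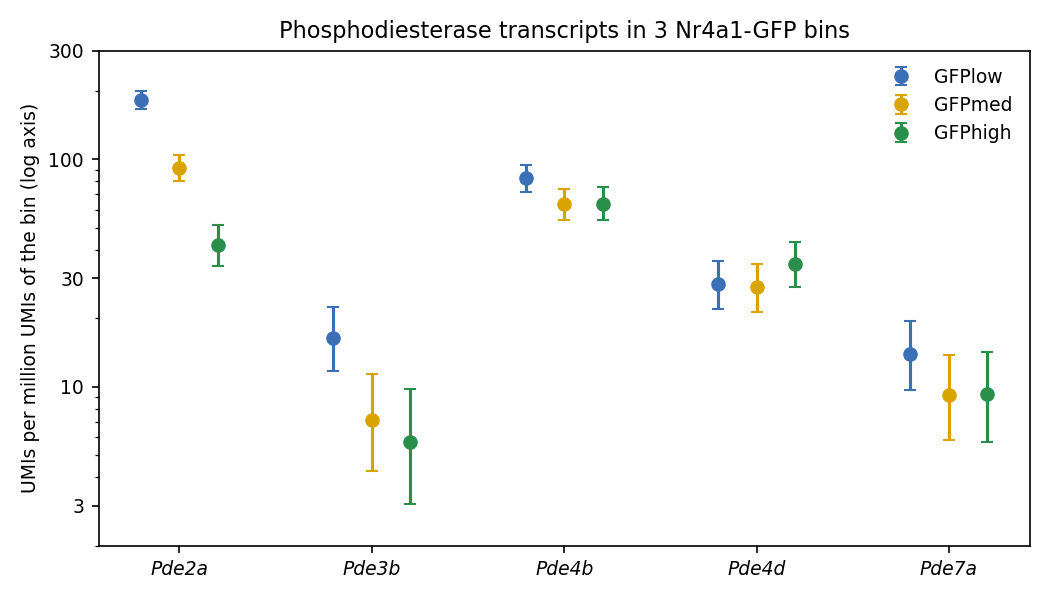
Level of each of the 5 phosphodiesterase genes (UMIs per 1000000 UMIs of the bin) in GFPlow, GFPmed and GFPhigh, 1 library each. Lines are exact Poisson 95% intervals. Pde2a goes from 183 to 91.6 and 41.8 UPM, Pde4b stays between 63.7 and 82.5 UPM, and Pde3b, Pde4d and Pde7a lie below 35 UPM.

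Each count of members past 1.5-fold stands beside the share of all genes past it, and 5 genes are too few to set the shares against each other. In GFPhigh against GFPlow, 2 of 5 members were at least 1.5-fold lower (Pde2a and Pde3b), beside 6.49% of the 8633 genes. In GFPmed against GFPlow these were 3 of 5 (also Pde7a), beside 6.14%, and in GFPhigh against GFPmed 1 of 5 (Pde2a), beside 4.51%. No member was at least 1.5-fold higher in any of the 3 pairs, while 9.79%, 5.61% and 8.53% of all genes were. The median log2 ratios of the members were -0.58, -0.60 and 0.00, and those of all genes 0.04, -0.04 and 0.08. From the lowest ratio of GFPhigh over GFPlow up, Pde3b ranked 40, Pde7a 568, Pde4b 1185 and Pde4d 6556.

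**Figure D2:**
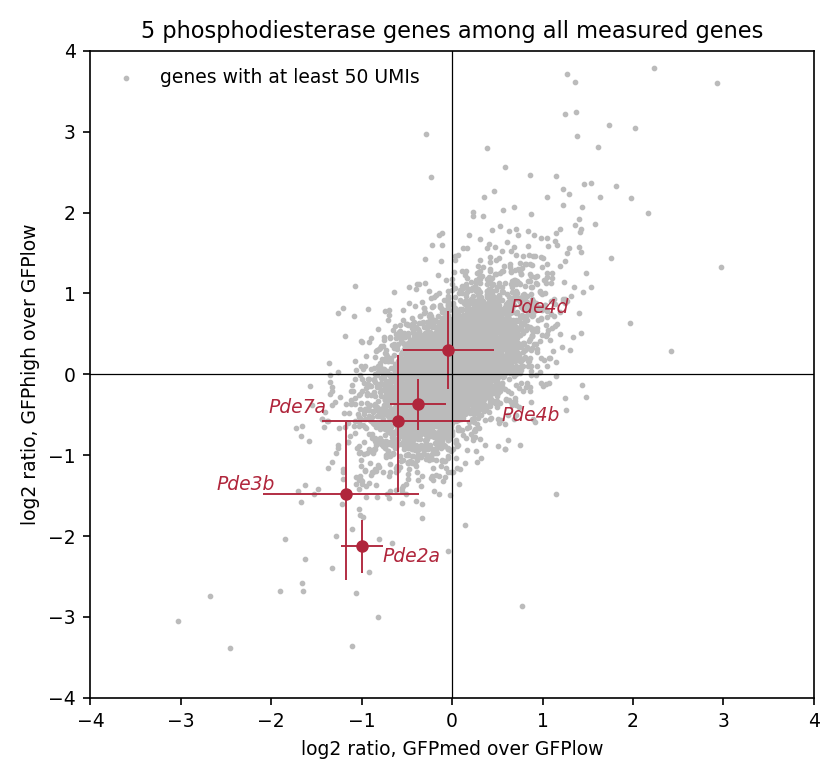
Log2 ratio of GFPhigh over GFPlow (y axis) against that of GFPmed over GFPlow (x axis) for 8633 genes with at least 50 UMIs (grey) and the 5 phosphodiesterase genes (red, with 95% counting intervals). The 2 ratios share GFPlow, so the grey cloud is tilted by construction, and 10 genes lie outside the axes. Pde2a and Pde3b lie at the lower edge of the cloud, Pde4b, Pde4d and Pde7a within it.

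Pde2a was the largest part of the family's UMIs in GFPlow and GFPmed, and Pde4b in GFPhigh. All 24 phosphodiesterase genes of the fixed family list summed to 400 UPM in GFPlow, 268 UPM in GFPmed and 234 UPM in GFPhigh. Pde2a made up 45.7% [42.5, 48.9], 34.1% [30.5, 37.8] and 17.9% [14.7, 21.4] of these UMIs. Without Pde2a the family summed to 217 UPM [199, 236], 177 UPM [161, 194] and 192 UPM [175, 211]. The cAMP-specific Pde4b made up 20.6%, 23.7% and 27.3%, and Pde4d 7.08%, 10.2% and 14.8%. As parts of 1 total, the other shares together are higher by construction where that of Pde2a is lower. The level of Pde4b itself was 82.5 UPM in GFPlow and 63.9 UPM in GFPhigh, and that of Pde4d 28.3 and 34.8 UPM. Pde6d, not among the 5 members, made up 12.7%, 14.1% and 17.7%. Pde3b made up 4.11%, 2.67% and 2.44%, and Pde7a 3.49%, 3.41% and 3.95%.

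**Figure D3:**
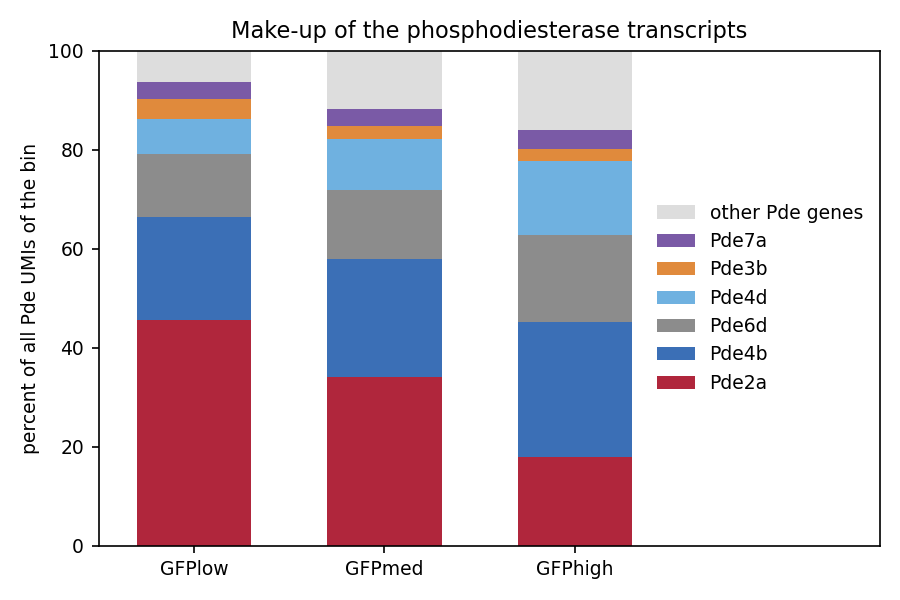
Share of all phosphodiesterase UMIs (percent, y axis) that each gene made up in GFPlow, GFPmed and GFPhigh, 1 library each. Pde2a goes from 45.7% to 17.9% and Pde4b from 20.6% to 27.3%. The remaining genes are summed as others.

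Of the 19 other family genes, 2 passed 50 UMIs, and neither was past 1.5-fold in any pair. Pde6d, which encodes a prenyl-binding chaperone and not a catalytic subunit, was at 50.9, 37.8 and 41.4 UPM (log2 ratio of GFPhigh over GFPlow -0.30). Pde4c, a further cAMP-specific gene, was at 12.7, 16.3 and 18.9 UPM (0.57). Below that count, the cGMP-specific Pde5a had 7, 12 and 17 UMIs and the calmodulin-activated Pde1b 17, 15 and 14. Pde3a, the paralogue of Pde3b, had 0 UMIs in each bin.

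UMIs of several members in 1 cell were counted for each bin. Of 2123 GFPlow cells, 491 had UMIs of 1 member, 51 of 2 and 1 of 3. In GFPmed these were 303, 36 and 1 of 1537 cells, and in GFPhigh 251, 19 and 0 of 1775. Cells without a UMI of any member were the most frequent in each bin, at 1580, 1197 and 1505.

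The bins also differed in cell state. Gates were set on UMIs of lists in each cell thinned to 500 UMIs. The effector gate (at least 3 UMIs of 10 genes such as S100a4, Itgb1, Ccr2 and Klrg1) held 366 GFPlow (17.2%), 110 GFPmed (7.16%) and 91 GFPhigh cells (5.13%). The TCR gate (at least 1 UMI of 12 genes such as Nr4a1, Egr1 and Tnfrsf9) held 308 (14.5%), 299 (19.5%) and 599 (33.7%). The bins were sorted on a reporter of Nr4a1, which is itself in this list, so these shares are not independent of the sort. The resting gate (at least 3 UMIs of 9 genes such as Ccr7, Lef1 and Tcf7) held 540 (25.4%), 406 (26.4%) and 419 (23.6%). These are ranges of a count and not cell types, and many cells lie near the limit: in GFPlow, 120 cells had exactly 3 effector UMIs and 232 had 2. In GFPmed these were 53 and 141, and in GFPhigh 56 and 160. For the TCR gate, 229, 212 and 345 cells had exactly 1 UMI. For the resting gate, 247, 188 and 189 had exactly 3 and 407, 319 and 290 had 2.

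Within each bin, Pde2a was higher in cells of the effector gate than in the rest. It was at 312 against 157 UPM in GFPlow, a log2 ratio of 0.998 [0.69, 1.30], and at 154 against 87.1 UPM in GFPmed, 0.85 [0.17, 1.41]. The GFPmed ratio was 0.24 with the effector gate 1 UMI looser and 1.86 with it 2 UMIs stricter. In GFPhigh it was at 59.6 against 40.9 UPM, 0.64 [-0.81, 1.65], with 7 UMIs inside the gate. The direction was thus the same in 3 of 3 libraries, and the interval of GFPhigh also holds no difference. Of the 7 UMIs in GFPhigh, 5 lay in cells that were also in the TCR gate (101 UPM [32.9, 236]). The GFPhigh cells of the effector gate only had 2, at 29.4 UPM [3.56, 106], beside 37.1 UPM in cells of neither gate. The direction in GFPhigh therefore did not hold in cells of the effector gate only. Inside against outside the TCR gate, Pde2a had log2 ratios of 0.05 [-0.35, 0.43], 0.19 [-0.30, 0.64] and 0.48 [-0.14, 1.09] in GFPlow, GFPmed and GFPhigh. With gates 2 UMIs stricter these values turned to -0.45, -0.52 and -0.54, so no direction is given. Across the resting gate they were -0.21 [-0.55, 0.11], -0.30 [-0.79, 0.15] and -0.43 [-1.34, 0.33], and they turned to 0.25 in GFPmed with a looser gate and 0.24 in GFPhigh with a stricter one.

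In GFPlow, Pde2a was higher in each class of cells with more effector UMIs up to 7, and lower above. It was at 132 UPM [112, 154] in 1003 cells with 0 effector UMIs, 169 UPM [138, 205] in 522 cells with 1 and 246 UPM [187, 316] in 232 cells with 2. It reached 331 UPM [253, 424] in 181 cells with 3 to 4 and 374 UPM [273, 500.4] in 108 cells with 5 to 7, and stood at 203 UPM [124, 313] in 77 cells with 8 or more. In GFPmed no such order was seen below 5 effector UMIs, where levels lay between 65.6 and 96.2 UPM. The 11 GFPmed cells with 8 or more gave 550 UPM [284, 960.1] from 12 UMIs. GFPhigh also had no such order, with 39.4, 30.7, 78.1, 63.3 and 58.7 UPM for 0, 1, 2, 3 to 4 and 5 to 7 effector UMIs, and 0 UMIs of Pde2a in the 4 cells with 8 or more.

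Pde2a was also compared between bins within classes of cells set by the effector and TCR gates. In cells of neither the effector nor the TCR gate (1497, 1151 and 1120 cells), Pde2a was at 155, 86.2 and 37.1 UPM, a log2 ratio of GFPhigh over GFPlow of -2.05 [-2.52, -1.63]. In cells of the TCR gate only it was at 166, 90.5 and 47.9 UPM, -1.79 [-2.45, -1.14]. In cells of the effector gate only it was at 314, 129 and 29.4 UPM, -3.10 [-6.48, -1.53], from 110, 18 and 2 UMIs. In cells of both gates it was at 301, 272 and 101 UPM, -1.47 [-3.36, -0.07], from 17, 8 and 5 UMIs. Pde2a was thus lower in GFPhigh than in GFPlow in 4 of 4 classes. Cells of a class can still differ in state between bins, and the part of this in the ratios was not tested. Without all cells of the effector gate, an alternative added after the data had been seen, the ratio was -1.93 [-2.30, -1.59].

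**Figure D4:**
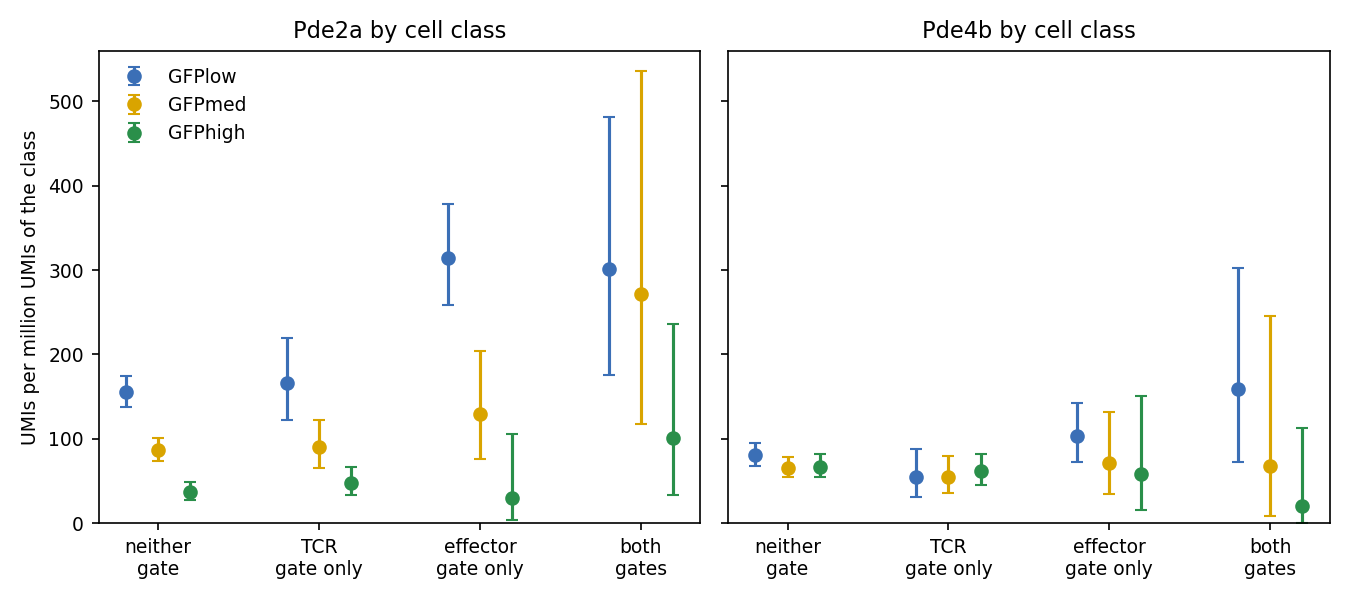
Level of Pde2a (left) and Pde4b (right) (UMIs per 1000000, y axis) in 4 classes of cells by the effector and TCR gates, in GFPlow, GFPmed and GFPhigh. Lines are exact Poisson 95% intervals. For Pde2a, GFPlow is above GFPhigh in each class, at 155 against 37.1 UPM in cells of neither gate. For Pde4b this does not hold in cells of the TCR gate only, at 54.2 against 61.2 UPM.

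The other members did not follow Pde2a across the effector gate in each bin. Pde4d was lower inside than outside in 3 of 3 libraries, at log2 ratios of -1.23 [-3.03, -0.06], -1.72 [-7.62, 0.23] and -0.25 [-2.78, 1.14], from 5, 1 and 3 UMIs inside. With gates 2 UMIs stricter GFPhigh turned to 0.92, so the direction did not hold there. Pde4b had 0.54 [0.01, 1.01], 0.22 [-0.82, 1.02] and -0.48 [-2.26, 0.65]. Inside over outside the TCR gate, Pde4b was at -0.22, -0.22 and -0.18 with intervals that hold 0, and at -0.53, -2.83 and -0.52 with gates 2 UMIs stricter. With the TCR gate 1 UMI stricter it was at 0.17 in GFPmed. In cells of neither gate Pde4b was at 80.7, 65.3 and 67.0 UPM. Pde3b and Pde7a had at most 7 and 4 UMIs inside the effector gate of a bin, which is too few to place them.

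Cells with a UMI of a member were also compared with the rest of their bin by summed lists. Cells with Pde2a had higher effector list levels in 3 of 3 libraries, at log2 ratios of 0.39 [0.31, 0.48], 0.17 [0.03, 0.31] and 0.47 [0.25, 0.68]. Cells with Pde4b had lower TCR list levels in 3 of 3, at -0.56 [-0.97, -0.20], -0.45 [-0.75, -0.17] and -0.40 [-0.61, -0.20]. This was not particular to Pde4b, as cells with Pde4d also had lower TCR list levels in 3 of 3. Their ratios were -1.38 [-2.39, -0.62], -0.22 [-0.63, 0.14] and -0.19 [-0.45, 0.05], and the intervals of GFPmed and GFPhigh hold 0. For Pde2a, Pde3b and Pde7a the direction of the TCR list differed between bins. Cells with Pde4d had lower effector list levels, at -0.68 [-0.94, -0.45], -0.96 [-1.29, -0.66] and -0.22 [-0.51, 0.05]. Cells with Pde3b had lower Treg identity list levels, at -0.60 [-0.88, -0.34], -0.21 [-0.55, 0.11] and -0.79 [-1.23, -0.41], from 30, 12 and 8 cells. Pde2a cells showed no difference in that identity list, at 0.03, 0.01 and -0.06 with intervals that hold 0. Median depth was higher with Pde2a than without: 1125 against 1079 UMIs in GFPlow, 1775 against 1520 in GFPmed and 1329 against 1123 in GFPhigh. Cells with Pde3b, Pde4b and Pde4d were also deeper in each bin. Medians were 1959 against 1529.5 UMIs for Pde4d in GFPmed and 1390 against 1112.5 for Pde4b in GFPhigh. The part of depth in the ratios of these lists was not tested.

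Markers of other cells moved between bins beside these ratios. Summed levels in GFPlow, GFPmed and GFPhigh were 225, 299 and 296 UPM for 8 B cell genes, led by Cd74, and 77.6, 221 and 81.5 UPM for 10 myeloid genes, led by Cst3. Of the myeloid genes, S100a8 and S100a9 were at 0 in each bin. Lyz1 was at 0.821, 53.7 and 0.881 UPM. In GFPmed, 1 cell held 92 of the 135 Lyz1 UMIs, and 1 cell held 53 of the 79 Lyz2 UMIs. For 3 plasma cell genes, led by Jchain, summed levels were 14.0, 2.79 and 217 UPM, and 472 of the 483 Jchain UMIs of GFPhigh lay in 1 cell. They were 49.7, 114 and 60.3 UPM for 7 CD8 T or NK genes, led by Cd8b1, with Gzma at 0.411, 39.4 and 0 UPM. They were 1388, 2975 and 1043 UPM for 6 erythroid genes, led by Hba-a2. A single cell held 865 of the 1571 Hba-a2 UMIs of GFPlow, 1298 of 3854 in GFPmed and 1164 of 1199 in GFPhigh. Platelet genes, led by Itga2b, were at 0.821, 1.59 and 0.881 UPM, and 6 cytokine genes of conventional CD4 T cells at 9.85, 7.16 and 12.8 UPM, with Il2 and Il17a at 0. Pde2a in the cells with markers of another lineage was at 69.4, 45.3 and 51.5 UPM, below the level of all cells in GFPlow and GFPmed.

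Over the ratios of GFPmed and GFPhigh to GFPlow, the genes nearest to Pde2a were Itgb1, Il7r and Tagln2, among 3082 genes with at least 100 UMIs in each bin. Their distances were 0.56, 0.74 and 0.77 in log2 units, so the match is loose, and Pde2a had the lower GFPhigh value. Itgb1, an integrin chain that is also in the effector list, was at 587, 253 and 193 UPM, and Il7r, the interleukin 7 receptor chain, at 194, 100.3 and 74.0 UPM. Pde3b was nearest to Itgb1 (0.13), Il7r (0.25) and Ahnak (0.32). For members with ratios near 0 many genes are close: Pde4b lay nearest to Pea15a (0.01), Irf2bpl (0.01) and Srf (0.02), and Pde4d to Psmc1 (0.01), Morc3 (0.01) and Col4a3bp (0.02). Pde7a lay nearest to Dock2 (0.04), Helz2 (0.04) and Fli1 (0.05). The 3 points behind each likeness share GFPlow, and nearness is a description only.

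The medians of the 7 other lists of the cyclic nucleotide pathway lay between -0.04 and 0.26, beside 0.04 over all genes. Among the enzymes that make the messengers, 5 of the 17 listed cyclase genes found in the count table passed 50 UMIs. Their median log2 ratio of GFPhigh over GFPlow was 0.03. Of these 5, 2 were past 1.5-fold upward and 0 downward, beside 9.79% and 6.49% of all genes. The 2, named after their values were seen, were Adcy6 at 0.59 [-0.36, 1.59] and Gucy1a3 at 1.48 [0.52, 2.61]. Adcy7, an adenylyl cyclase of blood cells, was at 106, 56.1 and 74.0 UPM, a log2 ratio of GFPhigh over GFPlow of -0.52 [-0.81, -0.23]. Adcy3 was at 23.8, 31.8 and 24.2 UPM (0.03), and Gucy1a2, a subunit of soluble guanylyl cyclase, had a ratio of -0.02. Of 9 genes for the supply, uptake and receptors of adenosine, which raises cAMP through Gs-coupled receptors, 6 passed 50 UMIs, with a median of 0.15. Of these, 0 were past the fold upward and 1 downward. That gene was Entpd1 (CD39), at 23.0, 20.3 and 11.9 UPM (-0.94 [-1.67, -0.26]). The adenosine kinase gene Adk was at 0.25, the transporter Slc29a1 at 0.17 and the receptor Adora2a at 0.35.

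Receptors and G proteins that raise or lower cAMP had 2 of 17 measured members past the fold upward and 3 downward in GFPhigh over GFPlow, beside 9.79% and 6.49% of all genes, with a median of -0.04. Ramp1, a partner of the receptor for the neuropeptide CGRP, was at 31.2, 41.8 and 85.4 UPM (1.45 [1.06, 1.86]), and Ptger2, a receptor for prostaglandin E2, at 17.2, 19.9 and 38.3 UPM (1.14 [0.60, 1.72]). Calcrl, which encodes the other CGRP receptor chain, was at 28.7, 24.7 and 17.2 UPM (-0.73). The 2 chains of the CGRP receptor thus differed in opposite directions.

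Effectors of cAMP came next. Of 15 measured PKA, EPAC and anchoring genes, 0 were past the fold upward and 2 downward, beside 9.79% and 6.49% of all genes, with a median of -0.02. The 2 are Prkar2a, a regulatory PKA subunit gene (11.1, 13.9 and 5.29 UPM, -1.04), and the anchoring protein gene Akap7 (9.03, 7.56 and 5.29 UPM, -0.75), named after their values were seen. The catalytic PKA subunit genes differed in opposite directions, with Prkaca at 46.8, 52.9 and 61.7 UPM (0.40) and the more abundant Prkacb at 288, 234 and 219 UPM (-0.39 [-0.56, -0.23]). Rapgef4 (EPAC2) had a ratio of 0.46 and Abcc4, a cAMP exporter, -0.37. Of 11 measured CREB factors and coactivators, 2 were past the fold upward and 0 downward, beside the same shares of all genes, with a median of -0.00. The 2 were Crem, a cAMP-inducible factor, at 17.7, 17.5 and 27.3 UPM (0.62), and Crtc1 at 0.95 [0.07, 1.91]. Crtc1 was named after its value was seen. Under the fold were Crebbp at 40.6, 51.3 and 58.1 UPM (0.51), Crtc3 at 97.3, 79.2 and 71.8 UPM (-0.44), and Ep300 at -0.26. Of 6 measured early genes that cAMP can induce, 3 were past the fold upward and 0 downward, beside the same shares of all genes. These were Crem, Dusp1 (15.2, 15.5 and 32.2 UPM, 1.07) and Nr4a1 (3.25), while Ppp1r15a had -0.45. The median of the 6 was 0.26, and that of the list 0.62 and 0.85 with a minimum of 100 and 20 UMIs per gene and 0.64 without cells of other lineages. The sort was on a reporter of Nr4a1 and TCR signals induce several of these genes too, so their levels cannot be read as cAMP alone.

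**Figure D5:**
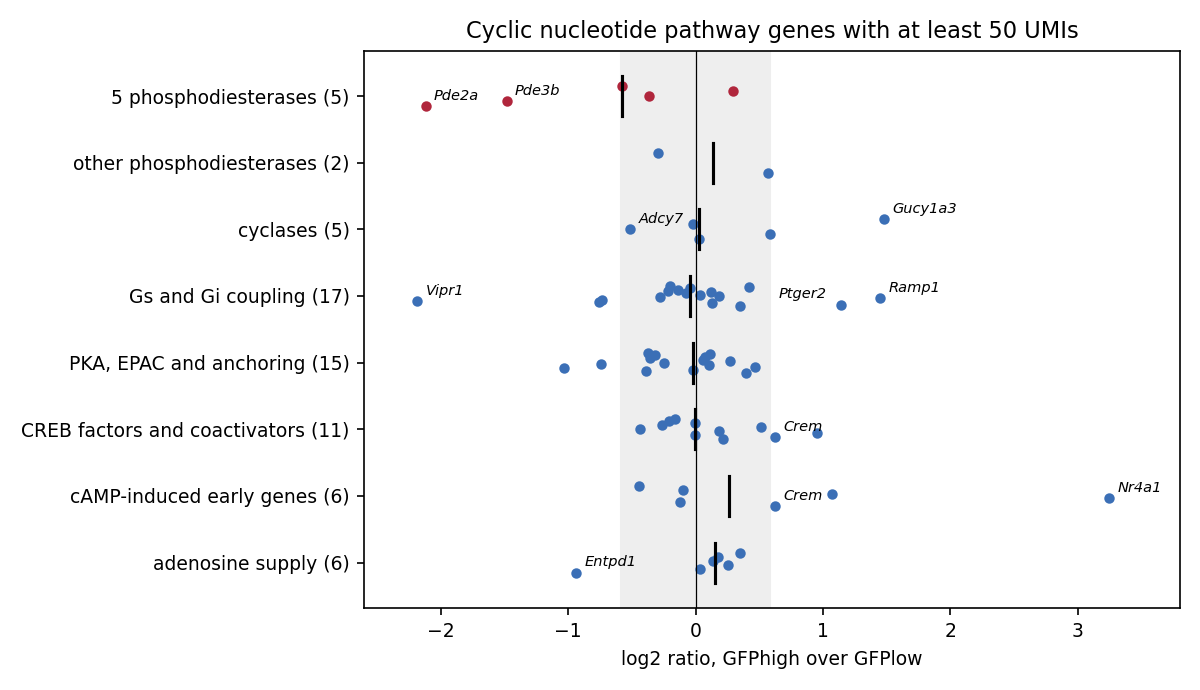
Log2 ratio of GFPhigh over GFPlow (x axis) of each gene with at least 50 UMIs in the phosphodiesterase and pathway lists (y axis, number of genes in brackets). Points are genes, black bars are list medians and the grey band spans less than 1.5-fold. Pde2a (-2.12) and Pde3b (-1.48) lie to the left of the band, and the 7 medians of the other lists lie between -0.04 and 0.26.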

How the data were processed

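Single-cell RNA was measured with inDrops, and each deposited sample is 1 cell of 1 of 3 sorted bins. The authors deposited a table of UMI counts, genes by cells, with no normalization. TopHat2, SAMtools and mm10 are named per the submitters' processing notes. Their versions, the annotation, the counter and the UMI rule are not given in the sources used here. Columns without a labelled cell numbered 0, and 96.2% of symbols are in GENCODE M21.

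The 5 members and all gene lists were chosen with earlier results of these data known, so no list is independent support. Cells with at least 500 UMIs were summed per bin and scaled to 1000000 UMIs. Log2 ratios add 0.5 UMI. Intervals at 95% are exact Poisson for levels, exact conditional binomial for ratios and Clopper-Pearson for shares, and a count of 0 is read as up to 3 counts. Replicates per bin were 0, so no test was made. No doublets were removed, and an alternative leaves out the 5% of cells with most UMIs. Genes with at least 50 UMIs over the bins were measured. The procedure was tested on simulated counts.

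Named genes were the 5 members, up to 4 genes per pathway list with the largest ratio of GFPhigh over GFPlow at 100 or more UMIs, the 3 genes nearest to each member, the 5 genes whose lowest ratio between cells with and without a member was highest, Foxp3, Nr4a1 and, for each other cell type, its leading marker by level. Others were named after their values were seen, and some genes that the rule names are not reported here. Alternatives changed the cell minimum, scaling (TMM of edgeR 4.0.16 in R 4.3.3 and median of ratios), total, depth per cell, gates, gene minimum and fold. Python 3.11.15, NumPy 2.4.6, SciPy 1.17.1 and matplotlib 3.10.9 were used.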

Additional observations from a re-analysis of the deposited data

Results flagged for a closer look

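Cells below 500 UMIs, which the levels leave out, also held UMIs of 4 members: 33 of Pde2a, 31 of Pde4b, 17 of Pde4d and 6 of Pde7a over the 3 bins. Pde3b had opposite directions across the TCR gate in different bins, a difference that was not tested. Its log2 ratio inside over outside was -1.38 [-4.78, 0.27] in GFPlow (2 and 38 UMIs), 1.38 [-0.26, 2.84] in GFPmed (7 and 11 UMIs) and -3.88 in GFPhigh. In GFPhigh it had 0 UMIs inside the gate, which allows up to 3.75 UPM, and 13 outside, so that -3.88 depends on the 0.5 UMI added and is no bound. The effector list was lower in cells with Pde7a than in the rest in GFPlow, at -0.90 [-1.32, -0.53] from 30 cells. It was higher in GFPmed, at 1.23 [0.95, 1.48] from 20 cells, and the difference between these bins was not tested.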

How the results depend on the processing

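No paired analysis was possible because each bin is 1 library, which holds for comparisons between bins. Comparisons within bins are paired in 3 libraries, which allow no p under 0.25, and none was tested. Over 12 alternatives, of which the one without cells in the effector gate was chosen after seeing the data, Pde2a kept its direction and stayed past 1.5-fold in each pair, at -2.20 to -1.93 for GFPhigh over GFPlow, -1.05 to -0.82 for GFPmed over GFPlow and -1.31 to -1.09 for GFPhigh over GFPmed. Pde3b was at -1.88 to -0.86 for GFPhigh over GFPlow, and past the fold in 11 of 12 for GFPmed over GFPlow. Pde7a was past the fold in 7 of 12 for GFPhigh over GFPlow and in 6 of 12 for GFPmed over GFPlow. With each cell thinned to 500 UMIs, GFPmed over GFPlow became -0.59 for Pde4d and 0.35 for Pde7a. No scaling moved the median of all genes by over 0.1.

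Counts of genes past the fold depended on the gene minimum and the fold. With a minimum of 100 UMIs, 518 genes were past it upward and 370 downward for GFPhigh over GFPlow, 252 and 341 for GFPmed over GFPlow, and 456 and 209 for GFPhigh over GFPmed. With a minimum of 20 they were 1299 and 855, 873 and 832, and, downward for GFPhigh over GFPmed, 695. At 2-fold they were 239 and 150, 110 and 109, and 162 and 85. The median of the other phosphodiesterases for GFPhigh over GFPmed was 0.10 with TMM and 0.24 without cells of other lineages.

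With gates 2 UMIs stricter, Pde2a had log2 ratios across the TCR gate of -0.45, -0.52 and -0.54 from GFPlow to GFPhigh, and in GFPmed 1.86 across the effector gate and -1.31 across the resting gate. With gates 1 UMI looser for effector and resting and 1 stricter for TCR, Pde2a had 0.25 across the resting gate in GFPmed. Over all 45 gate ratios of the members, 21 changed sign under at least 1 gate or cell alternative. Those past 1.5-fold that did so were those of Pde3b across the TCR gate in GFPlow (0.14, and 1.82 with 2 UMIs stricter) and GFPmed (-1.04), of Pde3b across the effector gate in GFPmed (0.087 with 2 UMIs stricter), and of Pde7a across the TCR gate in GFPmed (0.26) and the resting gate in GFPhigh (0.31). Except as shown by the smaller number of cells kept, the cause was not tested.

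Thinning to 1000 UMIs leaves 1268 GFPlow, 1225 GFPmed and 1064 GFPhigh cells, so the cells differ as well as the depth. Of those cells, the share with a UMI was 13.6% of GFPlow and 6.86% of GFPmed for Pde2a, 1.34% of GFPlow for Pde3b, 7.18%, 6.04% and 5.26% of GFPlow, GFPmed and GFPhigh for Pde4b, 2.20% of GFPmed and 2.73% of GFPhigh for Pde4d, and 1.26% of GFPlow for Pde7a. Depth limits Pde3b and Pde7a, the members with the fewest UMIs, and differences between mice are not covered by any interval.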

Other observations

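Single genes accompanied each member within libraries, chosen as those whose lowest ratio over the 3 bins was highest, so their direction is fixed by the choice. Tmem9b was higher in cells with Pde2a than in cells without, at log2 ratios of 0.66 [0.29, 1.01], 0.68 [0.17, 1.14] and 0.65 [-0.12, 1.27] in GFPlow, GFPmed and GFPhigh. Hivep2, Igflr1 and Syap1 were also among these genes, and none of the genes named is in the effector list. Cells with Pde4b were led by Trim35, Slc29a1, Fam105a, Nrbp1 and Copz1. The adenosine transporter gene Slc29a1 had 0.58 [-0.28, 1.28], 0.56 [-0.41, 1.33] and 0.70 [-0.16, 1.40], intervals that hold no difference. Cells with Pde4d were led by Hnrnph3, Psmg2, Npepps, Lsm2 and Btla, an inhibitory receptor gene. Btla had 1.05 [-0.28, 1.99], 0.67 [-0.66, 1.62] and 0.71 [-0.52, 1.61], from 8, 8 and 9 UMIs, and these intervals hold no difference. The genes of cells with Pde3b (Dpp3, Ndufab1, Coro1c, Hnrnph3 and Snrnp40) and Pde7a (Fas, Hbs1l, Zfp592, Vps54 and Wdr5) rest on 2 to 9 UMIs in each library.

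Named after their values were seen, 2 further genes of the pathway lists had fewer than 100 UMIs. Vipr1, a receptor for vasoactive intestinal peptide that raises cAMP, had 41, 41 and 8 UMIs in GFPlow, GFPmed and GFPhigh, a log2 ratio of GFPhigh over GFPlow of -2.19 [-3.56, -1.14]. Its ratio of GFPmed over GFPlow was -0.04 [-0.71, 0.62]. Gucy1a3, a subunit of soluble guanylyl cyclase, which makes the cGMP that stimulates the Pde2a enzyme, had 12, 13 and 32 UMIs, a ratio of 1.48 [0.52, 2.61].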
